A study of Mus musculus with 18 samples.

Results

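Serum response factor (SRF), its actin-regulated coactivators and 7 proteins that bind, sever or recycle actin were followed at the RNA level in immortalized mouse myoblasts with and without LAP2α. The genes are *Srf*, *Mkl1* and *Mkl2* (named *Mrtfa* and *Mrtfb* in newer annotation), *Cap1*, *Cap2*, *Cfl1*, *Cfl2*, *Pfn1*, *Pfn2* and *Gsn*. They were picked by symbol, and all 10 were found among the 19153 deposited genes and passed the filter on low counts. All cells carried a p53 knockout. Wildtype (WT) myoblasts had received the Cas9 plasmid without a guide and LAP2α knockout (KO) myoblasts the same plasmid with a guide against *Lap2α*, and both were sorted in bulk for the plasmid's fluorescence, so that neither is a single clone. Of each genotype, RNA was sequenced from proliferating cells in medium with 20% serum (Prol), from cells at confluence when differentiation starts (D0, day 0) and from cells switched to 5% serum for 2 days (D2). There were 3 replicate libraries in each of the 6 groups. The labels do not say whether replicates were separate cultures, so that p-values measure the spread between these libraries, which may be technical.

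SRF is a transcription factor that binds the CArG box, a short A/T-rich element flanked by CC and GG. Its coactivators MRTF-A and MRTF-B, encoded by *Mkl1* and *Mkl2*, bind monomeric actin and are held in the cytoplasm by it, and they enter the nucleus when monomers are used up by filament assembly. Proteins that set the monomer pool therefore act upstream of SRF, and many actin genes are in turn SRF targets. Cofilins (*Cfl1*, *Cfl2*) sever filaments, cyclase-associated proteins (*Cap1*, *Cap2*) help to depolymerize them and recharge monomers with ATP, profilins (*Pfn1*, *Pfn2*) deliver ATP-actin to growing ends, and gelsolin (*Gsn*) severs and caps filaments in response to calcium. *Cfl2* and *Cap2* are the paralogs known from striated muscle.

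*Srf* is itself known as an SRF target, and its promoter is shown for that reason. In the RefSeq promoter windows of 300 bases (GRCm38.p6, 250 bases before to 50 after an annotated start), the *Srf* window held CArG boxes at positions -82 to -73 and -62 to -53 from the start. They are printed in capitals in the 250 bases upstream of the start (chr17:46556163-46556412, minus strand).

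*Srf*: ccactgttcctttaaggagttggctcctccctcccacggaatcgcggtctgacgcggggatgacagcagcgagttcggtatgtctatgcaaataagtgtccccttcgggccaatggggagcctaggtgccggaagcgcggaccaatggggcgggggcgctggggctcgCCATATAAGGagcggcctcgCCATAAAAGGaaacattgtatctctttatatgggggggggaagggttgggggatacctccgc

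A CArG box on either strand was present in 535 of all 32851 windows (1.63%), and 6 windows (0.0183%) held more than 1. No other window of the 10 genes (14 windows of the other 9) had the box, which says only that these letters are absent from those windows. The E-box CAGCTG, read by myogenic factors, was found in 4 of the 15 windows, of *Mkl2*, *Cap1* and *Gsn*, and in 16.3% of all windows. Of known SRF targets, a box was present for 6 of 20 cytoskeletal genes, 1 of 4 immediate early genes and 2 of 6 striated muscle genes in the table, against 1.81% of all 27025 genes. One cytoskeletal and one striated muscle example are shown for comparison with the *Srf* boxes, again with the box in capitals.

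*Vcl* (chr14:20929156-20929195, plus strand): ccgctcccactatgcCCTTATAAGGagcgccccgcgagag

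*Acta1* (chr8:123894824-123894863, minus strand): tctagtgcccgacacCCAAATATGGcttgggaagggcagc

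The values are CPM, read counts relative to a library total that was scaled by the trimmed mean of M-values, and totals ranged from 26437823 to 41619016 expected counts. The targeted gene *Tmpo* was measured as a sum over its isoforms, of which LAP2α is only one, and was at 106 to 315 CPM in WT and 94.5 to 260.4 CPM in KO libraries, so that it checks the labels only in part. Summed levels of 7 myoblast and myotube markers were 32.3 to 64.1 CPM in Prol and D0 libraries, 1657 to 3149 CPM in WT D2 and 1031 to 1191 CPM in KO D2. Of these, 6 rose from Prol to D2 in both genotypes. *Myf5* was not called, with means of 24.5 CPM in WT Prol and 17.6 CPM in WT D2. The 5 fibroblast markers found were at 14.5 to 79.0 CPM in Prol and D0, 229 to 258 CPM in WT D2 and 219.8 to 425 CPM in KO D2. The 3 smooth muscle markers found were at 233 to 529 CPM in Prol and D0, 815 to 1516 CPM in WT D2 and 559 to 1025 CPM in KO D2, with *Acta2* higher, *Cnn1* lower and *Smtn* not called at D2. Summed endothelial, immune, adipocyte and Schwann cell markers were at most 8.004 CPM in any library. Summed skeletal muscle, smooth muscle and fibroblast markers therefore moved with D2, though not every marker did, and their part in the results on D2 was not tested. In bulk RNA, a change in the share of a cell type and a change of RNA per cell cannot be told apart.

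The D2 libraries with replicate number 1 stood apart from the other D2 libraries in WT and in KO. In both genotypes, this library was the highest of its group for 8 of the 10 genes and the lowest for *Pfn2*, while it was the highest for 34.6% and the lowest for 35.02% of all genes tested, and for 50.5% and 29.9% of genes with a mean of at least 10 CPM. Replicate number 1 also differed from the others by transcript length. In genes with transcripts of up to 1 kb, the median log2 difference of this D2 library from the other 2 libraries of its group was -0.63 in WT and -0.70 in KO, and in genes over 6 kb it was 0.76 and 0.69. The direction was the same at D0 (-0.81 and -0.54 in short genes, 0.66 and 0.50 in long genes) and in Prol (-0.36 and -0.42, 0.21 and 0.23), with smaller medians in Prol. The part of this length trend in the results was not tested beyond a fit in which it was removed. The list counts are given with and without the D2 libraries of this number.

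**Figure D1:**
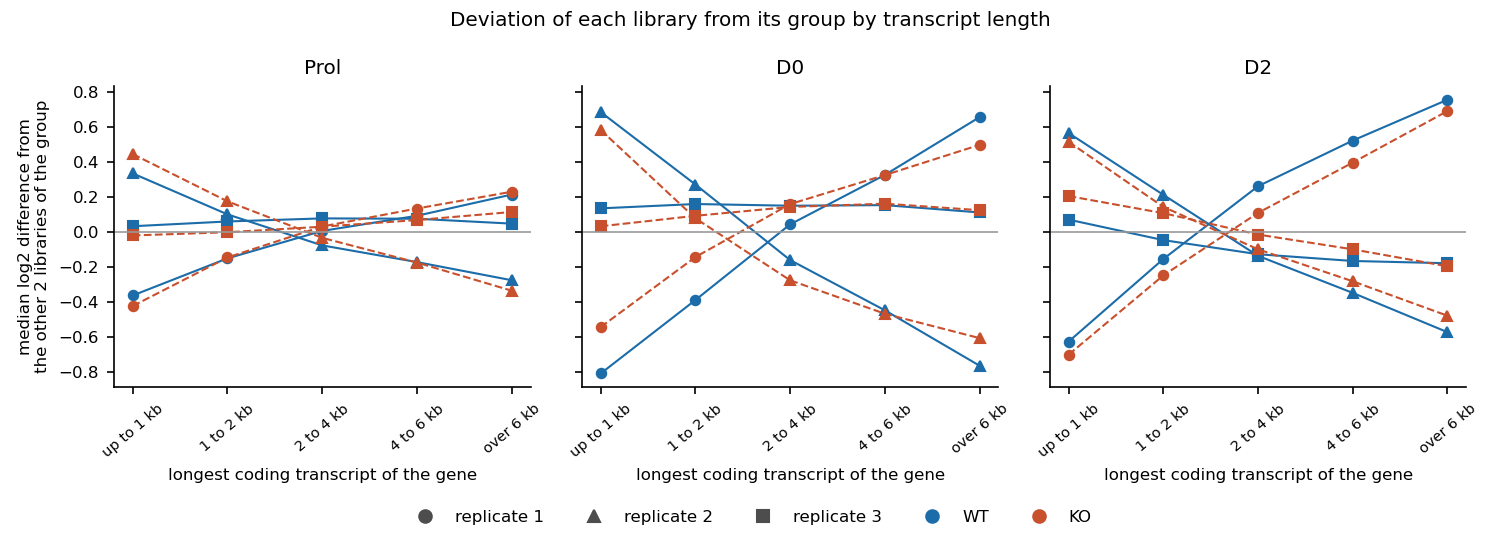
Median log2 difference of each library from the other 2 libraries of its group (vertical axis) in 5 classes of transcript length (horizontal axis), for Prol, D0 and D2. Circles, triangles and squares are replicates 1, 2 and 3, blue solid lines WT and red dashed lines KO. Replicate 1 ran from -0.63 (WT) and -0.70 (KO) in the shortest to 0.76 and 0.69 in the longest class at D2, and replicate 2 ran the opposite way in all 3 states.

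Per kilobase of the longest coding transcript, the 10 genes covered a wide range and kept a stable order at the top. In WT Prol, *Pfn1* was at 1208 ± 110 CPM per kb (SD, n = 3 in every group here and below) and *Cfl1* at 775 ± 94.9, both far above *Cap1* at 83.9 ± 19.6, *Gsn* at 62.4 ± 20.3 and *Srf* at 48.3 ± 7.02. *Cfl2* was at 37.7 ± 3.08, *Mkl1* at 15.7 ± 2.91, *Pfn2* at 9.78 ± 2.04, *Mkl2* at 3.64 ± 0.619 and *Cap2* at 1.60 ± 0.689 CPM per kb. The libraries of *Cap1* and *Gsn* overlapped, as did those of *Gsn* and *Srf*, while the ranges of all other neighbours in this order were apart. At D2, *Gsn* (137.3 ± 72.7 in WT and 166 ± 62.5 in KO) stood above *Cap1* (68.6 ± 38.8 and 81.5 ± 34.6), with overlapping libraries. *Cap2* moved above *Mkl2* in both genotypes, at 10.53 ± 4.12 against 3.84 ± 1.75 CPM per kb in WT D2, where their ranges were apart, and at 5.99 ± 0.665 against 5.14 ± 3.07 in KO D2, where they overlapped.

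**Figure D2:**
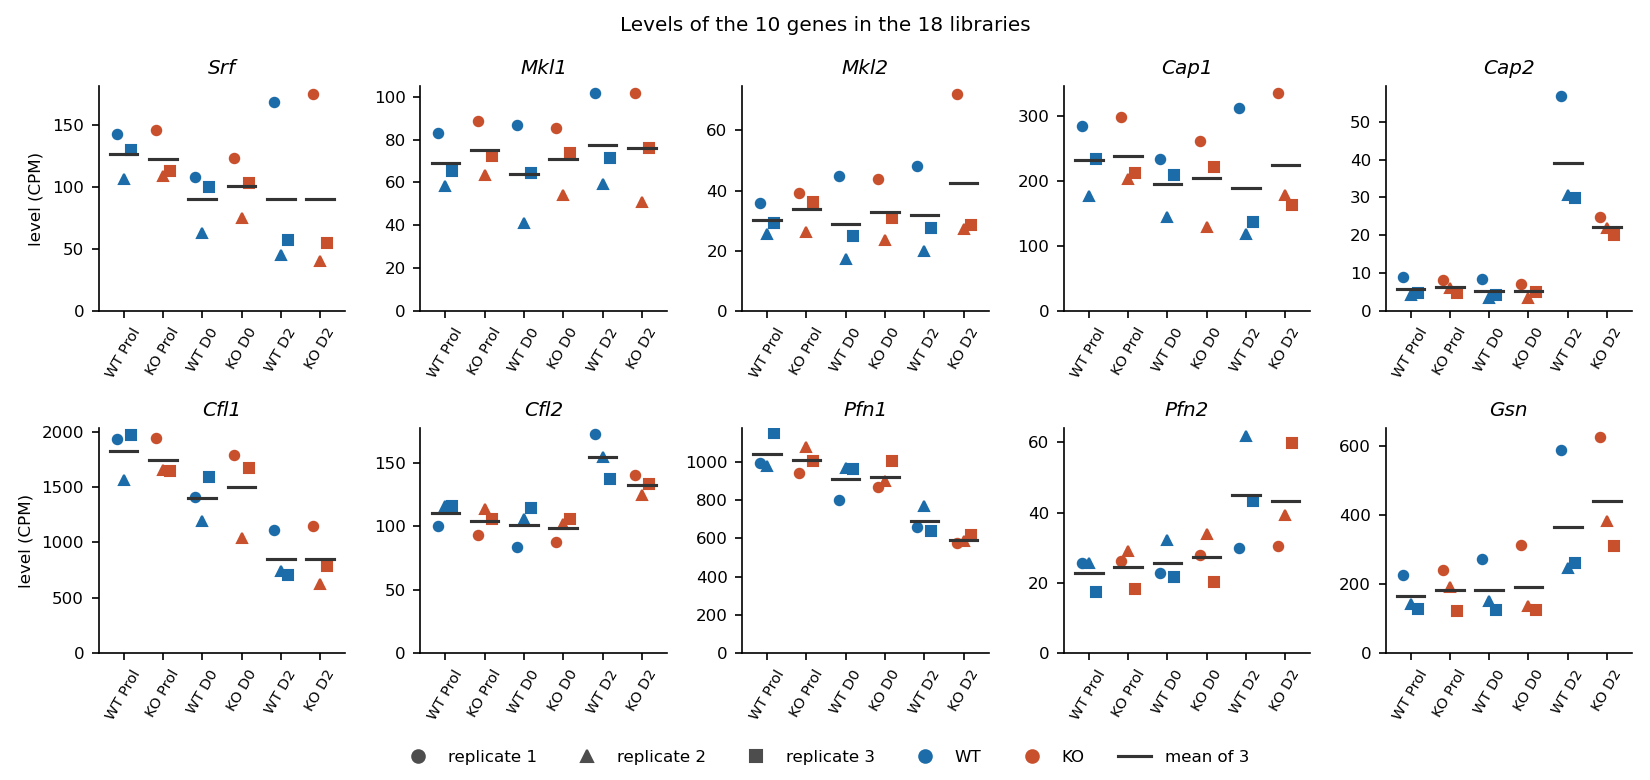
CPM of each gene (vertical axes, from 0) in the 18 libraries by group (horizontal axes). Circles, triangles and squares are replicates 1, 2 and 3, blue WT and red KO, and black lines the means of 3. *Cap2* lies between 20.0 and 56.7 CPM in the D2 libraries and at or below 8.88 CPM in all others, and *Srf* replicate 1 at D2 (169 and 175 CPM) lies far above the other D2 libraries.

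Differentiation was compared first, by the contrast of D2 with Prol in each genotype. In WT, 3 of the 10 genes rose (*Cap2*, *Cfl2*, *Pfn2*) and 2 fell (*Cfl1*, *Pfn1*) at an adjusted p under 0.05 over all 17672 genes tested with limma, where 16.6% of all genes rose and 14.1% fell. In KO, 2 rose (*Cap2*, *Gsn*) and 2 fell (*Cfl1*, *Pfn1*), where 17.1% of all genes rose and 15.2% fell. Across the 10 genes, the median log2 fold change was 0.07 in WT and 0.09 in KO, and across all genes -0.01 and 0.02. Both comparisons are between groups of the same genotype and share no library. *Cap2*, *Cfl1* and *Pfn1* were called in both. With library totals alone in place of the scaling used, the median over all genes moved to 0.15 in WT and 0.16 in KO, and the directions of the called genes were as given here.

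**Figure D3:**
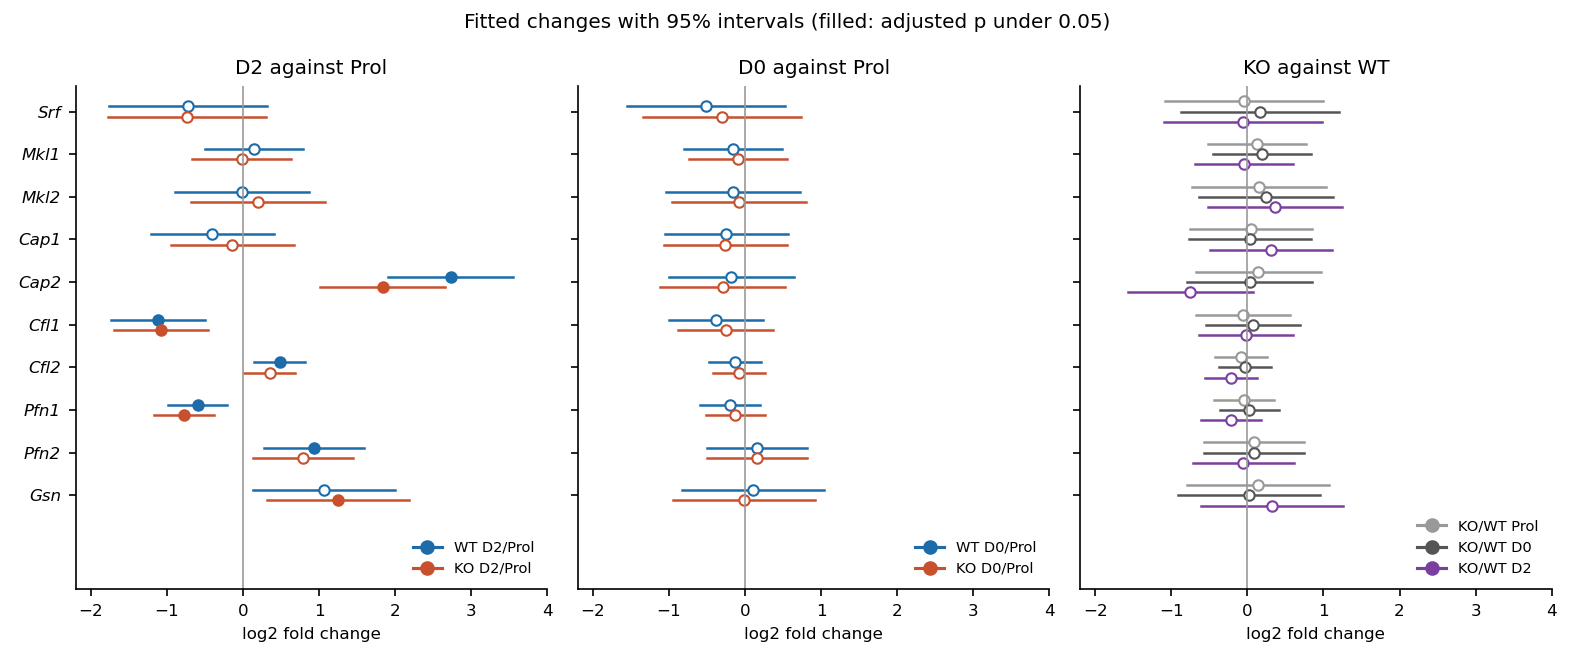
Fitted log2 fold changes (horizontal axes) with 95% intervals for the 10 genes (rows) in D2 against Prol, D0 against Prol and KO against WT. Filled points have an adjusted p under 0.05, open points do not, and the filled points are 5 in WT and 4 in KO of the D2 against Prol panel. *Cap2* has the highest values, 2.73 in WT and 1.84 in KO, and no point of the D0 or KO against WT panels is filled.

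*Srf*, the DNA-binding partner, was at 143, 107 and 129.6 CPM in the 3 WT Prol libraries and at 169, 45.3 and 57.1 CPM in WT D2. In KO it was at 146, 109 and 113 CPM in Prol and at 175, 40.4 and 54.7 CPM in D2. Within each genotype, the D2 library of replicate 1 was above all Prol libraries and the other D2 libraries were below all of them. The log2 fold change was -0.73 (standard error (SE) 0.49, adjusted p = 0.295) in WT and -0.74 (SE 0.49, adjusted p = 0.279) in KO, and neither passed the test. Without WT D2 replicate 1 the value was -1.30 (adjusted p = 0.0394) in WT, and without KO D2 replicate 1 it was -1.37 (adjusted p = 0.0239) in KO. With both of these libraries left out, adjusted p-values were 0.00223 and 0.00146. This fit, used again below, was chosen after seeing the data. It leaves out the libraries in which *Srf* stood apart, so that its p-values are no independent test of a fall of *Srf*. Compared within replicate number, *Srf* at D2 was 1.18-fold, 0.426-fold and 0.441-fold of Prol in WT, and 1.19-fold, 0.371-fold and 0.484-fold in KO. In WT, numbers 2 and 3 are not shown to pair D2 with Prol libraries. With the length trend removed, the D2 libraries were at 176, 43.0 and 53.7 CPM in WT and at 182, 37.4 and 52.1 CPM in KO, so that replicate 1 stood as far apart as before.

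The MRTF genes did not pass the test in either direction. *Mkl1* was at 83.2, 58.4 and 65.4 CPM in WT Prol and 102, 59.1 and 71.2 CPM in WT D2, and at 88.8, 63.7 and 72.4 CPM in KO Prol and 102, 51.0 and 76.1 CPM in KO D2. *Mkl2* was at 35.8, 25.7 and 29.2 CPM in WT Prol and 48.0, 19.9 and 27.7 CPM in WT D2, and at 39.3, 26.3 and 36.1 CPM in KO Prol and 72.0, 27.2 and 28.6 CPM in KO D2. Prol and D2 libraries overlapped for both genes in both genotypes, and the highest library of each D2 group was replicate 1. The 95% intervals of the log2 fold change were -0.50 to 0.79 (WT) and -0.66 to 0.63 (KO) for *Mkl1*, and -0.89 to 0.87 (WT) and -0.68 to 1.08 (KO) for *Mkl2*.

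*Cap2* had the largest change of the 10 genes. It was at 8.88, 4.17 and 4.78 CPM in WT Prol and at 56.7, 30.6 and 29.96 CPM in WT D2. In KO, it was at 8.22, 6.02 and 4.81 CPM in Prol and at 24.9, 21.8 and 20.0 CPM in D2. All D2 libraries were above all Prol libraries, and every WT D2 library was above every KO D2 library. *Cap2* rose by 2.73 on the log2 scale (SE 0.39, adjusted p = 6.34e-05) in WT and by 1.84 (SE 0.39, adjusted p = 0.00178) in KO, a 6.65-fold and a 3.57-fold change. It passed the test under every alternative tried and with any 1 library left out. The broadly expressed paralog *Cap1* did not pass the test, with 285, 177 and 235 CPM in WT Prol, 313, 119 and 137 CPM in WT D2, 299.5, 204 and 213 CPM in KO Prol and 336, 178 and 163 CPM in KO D2. Its log2 fold change was -0.40 (adjusted p = 0.472) in WT and -0.14 (adjusted p = 0.822) in KO. Without the D2 libraries of replicate number 1 the value in WT was -0.83 (adjusted p = 0.0490).

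*Cfl1*, the cofilin of most cell types, fell in both genotypes. It was at 1939, 1567 and 1968 CPM in WT Prol and 1116, 743 and 702 CPM in WT D2, and at 1946, 1654 and 1646 CPM in KO Prol and 1149, 626 and 785 CPM in KO D2. No D2 library reached the lowest Prol library. *Cfl1* decreased by 1.12 on the log2 scale in WT (SE 0.29, adjusted p = 0.00813) and by 1.08 in KO (SE 0.29, adjusted p = 0.00984), the latter with an adjusted p of 0.0568 without KO D2 replicate 2. The muscle cofilin *Cfl2* was at 100.3, 116 and 116 CPM in WT Prol and rose to 173, 154 and 138 CPM in WT D2 (log2 fold change 0.48, SE 0.16, adjusted p = 0.0310). In KO it was at 93.5, 113 and 106 CPM in Prol and 140.2, 125 and 133 CPM in D2, and the change of 0.35 (SE 0.16, adjusted p = 0.109) did not pass the test. When replicate number was added as a block, the KO change passed it (adjusted p = 0.0392). The D2 libraries lay above the Prol libraries in both genotypes. The call in WT was lost when any WT Prol library (adjusted p = 0.118, 0.0529 and 0.0629 without replicates 1, 2 and 3), WT D2 replicate 1 (0.0934) or WT D2 replicate 2 (0.0709) was left out, and in the fits of only the groups compared (0.0875), of replicates 2 and 3 alone (0.0905) and without the D2 libraries of replicate number 1 (0.0838).

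*Pfn1*, the most abundant of the 10 genes per kilobase, fell in both genotypes as well. It was at 995, 977 and 1149 CPM in WT Prol and at 659, 768 and 641 CPM in WT D2, and at 943, 1080.3 and 1003 CPM in KO Prol and at 573, 584 and 615 CPM in KO D2. The D2 libraries lay below all Prol libraries in both genotypes. The decrease on the log2 scale was 0.59 in WT (log2 fold change -0.59, SE 0.18, adjusted p = 0.0224) and 0.77 in KO (log2 fold change -0.77, SE 0.18, adjusted p = 0.00449). The WT call was lost without WT Prol replicate 3 (adjusted p = 0.0994) and without WT D2 replicate 3 (0.0798). It was also lost with the length trend removed (0.0623), with library totals alone (0.0978) and in the fit of only the groups compared. The KO call was kept with any library left out. The second profilin gene, *Pfn2*, was at 25.6, 25.7 and 17.4 CPM in WT Prol and rose to 29.95, 61.9 and 43.3 CPM in WT D2 (log2 fold change 0.94, SE 0.31, adjusted p = 0.0310). In KO it was at 26.1, 28.9 and 18.3 CPM in Prol and 30.6, 39.4 and 59.9 CPM in D2, and the log2 change of 0.79 (SE 0.31, adjusted p = 0.0622) did not pass the test. It passed with the replicate block (adjusted p = 0.0192), with a random replicate block in voom (0.0187), with replicates 2 and 3 alone (0.0411), without the D2 libraries of replicate number 1 (0.0169) and with the length trend removed (0.0392). Unlike for the other genes, replicate 1 was the lowest D2 library of *Pfn2* in both genotypes. The WT call was lost without WT Prol replicate 3 (adjusted p = 0.141), WT D2 replicate 2 (0.149) or WT D2 replicate 3 (0.0751), and in the fit of only the groups compared. In KO the gene was called without KO D2 replicate 1 (0.0301), WT D2 replicate 1 (0.0429) or WT D2 replicate 2 (0.0494).

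*Gsn* was at 227, 141 and 128 CPM in WT Prol and at 587, 245 and 261 CPM in WT D2. In KO it was at 239, 190.4 and 121 CPM in Prol and at 627, 382 and 310.3 CPM in D2. All D2 libraries were above all Prol libraries of their genotype. The log2 fold change was 1.06 in WT (SE 0.44, adjusted p = 0.0794), which did not pass the test, and 1.25 in KO (SE 0.44, adjusted p = 0.0395), which did. In WT it was called with library totals (1.23, adjusted p = 0.0308) and with replicates 2 and 3 alone (0.91, 0.0111), and was at 0.66 (0.283) without WT D2 replicate 1. Without the D2 libraries of replicate number 1 the KO value was 0.96 (0.0937). A difference between the genotypes in this change was not called. Within replicate number, where 2 and 3 are not shown to pair the WT libraries, *Gsn* was 2.58-fold, 1.74-fold and 2.03-fold of Prol in WT D2. In KO D2 it was 2.62-fold, 2.00-fold and 2.56-fold. The KO call was lost without KO Prol replicate 2 (adjusted p = 0.0708), KO Prol replicate 3 (0.167), KO D2 replicate 1 (0.142) or KO D2 replicate 2 (0.0718), and with the length trend removed (0.0506). *Gsn* is also abundant in fibroblasts, whose markers rose at D2 as given above.

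For each pair of paralogs, the log2 ratio within a library was compared, since no library scaling alters it. The ratio of the second to the first paralog was higher at D2 than in Prol by 2.56 for *Cap2* to *Cap1*, 1.52 for *Cfl2* to *Cfl1* and 1.55 for *Pfn2* to *Pfn1*. For all 3 pairs, each of the 6 D2 libraries was above each of the 6 Prol libraries. The exact permutation test within genotypes (two-sided) gave p = 0.005 for each pair, the smallest that its 400 arrangements allow (adjusted p = 0.01 over 6 tests). Per kilobase, *Cap2* went from 1.83% ± 0.397 of the *Cap1* and *Cap2* sum in WT Prol to 14.0% ± 2.07 in WT D2, and from 1.94% ± 0.255 to 7.33% ± 1.81 in KO. *Cfl2* went from 4.69% ± 0.828 to 13.0% ± 1.69 of the cofilin sum in WT and from 4.61% ± 0.795 to 11.5% ± 2.47 in KO. *Pfn2* went from 0.817% ± 0.228 to 2.32% ± 0.624 of the profilin sum in WT and from 0.883% ± 0.189 to 2.60% ± 0.781 in KO. The first paralog remained the larger part in every library. Short reads shared between paralogs or with processed pseudogenes of *Cfl1* and *Pfn1* are split by an estimate in these expected counts, and how far that moves the ratios was not tested.

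**Figure D4:**
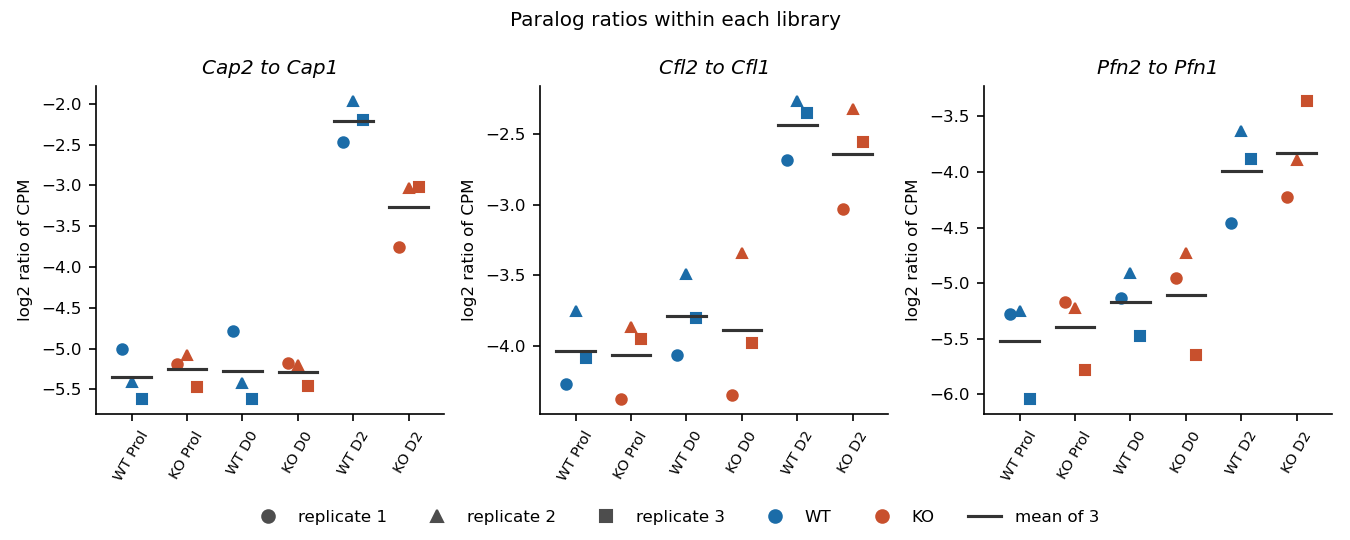
Log2 ratio of CPM of the second to the first paralog (vertical axes) in the 18 libraries by group (horizontal axes), for the cyclase-associated proteins, the cofilins and the profilins. Circles, triangles and squares are replicates 1, 2 and 3, blue WT and red KO, and black lines the means of 3. In every panel all D2 libraries lie above all Prol libraries, and in the *Cap2* to *Cap1* panel the WT D2 libraries (-2.47 to -1.97) lie above the KO D2 libraries (-3.75 to -3.02).

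Loss of LAP2α was compared next, within each state. At D2, 0 of the 10 genes passed the test in limma, 0 had an unadjusted p under 0.05, where 1.96% of all genes had one, and 0 of all 17672 genes passed after adjustment. The libraries of KO D2 and WT D2 did not overlap for 2 of the 10 genes, *Cap2* and *Pfn1*, both lower in KO, and for 6.17% of all genes. *Cap2* was at 22.2 ± 2.47 CPM in KO D2 and 39.1 ± 15.3 CPM in WT D2, and within replicate number KO was at 0.439-fold, 0.713-fold and 0.667-fold of WT. Its log2 fold change was -0.75 (SE 0.39, 95% interval -1.57 to 0.07), which did not pass the test. With the replicate block the unadjusted p was 0.00190 and the adjusted p 0.475. This block and the folds within replicate number rest on a pairing that is not shown between the genotypes for numbers 2 and 3 at D2. *Pfn1* was at 591 ± 21.7 CPM in KO D2 and 689 ± 68.6 CPM in WT D2, with a 95% interval of -0.61 to 0.17. *Cap2* was the only one of the 10 genes whose KO and WT means at D2 differed by more than 1.5-fold. This difference did not exceed the spread between replicates by the limma test without a block. The study counts *Cap2* among the genes lower in KO cells, and its expression model blocks on the sequencing lane. By chromatin immunoprecipitation, the study also reports more lamin A/C and HDAC1 at the regulatory region of *Cap2* in KO cells. When LAP2α was put back into KO cells, it reports less lamin A/C there and the histone mark H3K27ac again at the WT level.

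The difference between genotypes in the D2 against Prol change was tested as an interaction, in which 0 of the 10 genes had an unadjusted p under 0.05 (0.945% of all genes). For *Cap2*, it was -0.90 (SE 0.55, 95% interval -2.06 to 0.26). In the *Cap2* to *Cap1* ratio, WT D2 libraries had 15.3%, 20.4% and 17.9% *Cap2* by CPM and KO D2 libraries 6.90%, 10.9% and 10.9%, without overlap, whereas Prol and D0 libraries of the genotypes overlapped. Over all 3 states, the log2 ratio differed between KO and WT by -0.32 for *Cap2* to *Cap1*, -0.11 for *Cfl2* to *Cfl1* and 0.12 for *Pfn2* to *Pfn1* (exact permutation test, two-sided, 8000 arrangements, p = 0.117, 0.453 and 0.498, adjusted p = 0.175, 0.498 and 0.498).

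In Prol and at D0, no difference between KO and WT passed the test. The number with an unadjusted p under 0.05 was 0 of 10 in Prol (1.11% of all genes), 0 of 10 at D0 (1.47%) and 0 of 10 with the states averaged (2.30%). Fitted log2 differences in the averaged comparison lay between -0.19 (*Cap2*) and 0.25 (*Mkl2*), and *Mkl2* was higher in KO in 8 of 9 pairs of libraries with the same state and replicate number (39.3 against 35.8, 26.3 against 25.7 and 36.1 against 29.2 CPM in Prol), while *Cfl2* was higher in KO in 1 of 9 such pairs. The 95% interval of the averaged log2 difference was -0.25 to 0.76 for *Mkl2* and -0.58 to 0.62 for *Srf*.

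Confluence alone was the third question. In D0 against Prol, 0 of 10 genes passed the test in WT and 0 of 10 in KO, and 0 had an unadjusted p under 0.05, where 2.17% and 1.12% of all genes had one. *Srf* was at 108, 62.7 and 99.5 CPM in WT D0 and 122.9, 75.3 and 103 CPM in KO D0, and its means of 90.01 ± 24.04 and 100.4 ± 23.9 CPM were below those in Prol (126 ± 18.4 and 122.6 ± 20.4). *Srf* was lower at D0 in all 6 pairs of the same genotype and replicate number, at 0.755-fold, 0.588-fold and 0.768-fold of Prol in WT and 0.841-fold, 0.691-fold and 0.912-fold in KO, but did not pass the test with the replicate block either (adjusted p = 0.760 in WT and 0.980 in KO). *Cap2* was at 5.36 ± 2.75 CPM in WT D0 and 5.26 ± 1.86 CPM in KO D0, against 5.94 ± 2.56 and 6.35 ± 1.73 CPM in Prol. When D2 was compared with D0, 2 of 10 genes passed the test in WT (26% of all genes), *Cap2* (log2 fold change 2.92) and *Cfl2* (0.62). In KO, 4 of 10 passed (28.3% of all genes), *Cap2* (2.13) and *Gsn* (1.27) as higher and *Cfl1* (-0.82) and *Pfn1* (-0.64) as lower. With the replicate block, *Cfl2* was called in KO as well (0.43, adjusted p = 0.0147). Of these calls, those of *Cap2* in both genotypes and of *Cfl2* in WT were kept with any library left out. *Pfn1* in KO was lost without KO D0 replicate 3 (adjusted p = 0.0725) and with the length trend removed (0.0949). *Cfl1* in KO was lost without KO D0 replicates 1 (0.144) or 3 (0.159) and KO D2 replicates 2 (0.189) or 3 (0.116), and at 0.0535 to 0.0600 without any Prol library, WT D0 replicate 3, or WT D2 replicates 2 or 3, and *Gsn* in KO without KO D2 replicate 1 (0.148), KO D2 replicate 2 (0.0749), KO D0 replicate 2 (0.114), KO D0 replicate 3 (0.176), WT Prol replicate 2 (0.0501) or KO Prol replicate 2 (0.0513). Without the D2 libraries of replicate number 1, *Srf* was lower at D2 than at D0, by -0.78 on the log2 scale in WT (adjusted p = 0.0429) and -1.07 in KO (0.00878). That fit was chosen after seeing the data and leaves out the libraries in which *Srf* stood apart. D2 against D0 and D2 against Prol share the D2 libraries.

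Genes known as SRF targets were counted from lists by role. Of 22 cytoskeletal targets, 2 rose and 2 fell in WT D2 against Prol, and 2 rose and 2 fell in KO, with a median log2 fold change of -0.31 and -0.29. Of all genes, 16.6% rose and 14.1% fell in WT and 17.1% rose and 15.2% fell in KO, and the same shares stand as background to the list counts that follow. In a fit without the D2 libraries of replicate number 1, chosen after seeing the data, 2 cytoskeletal targets rose and 6 fell in each genotype, with 3123 genes higher and 3056 lower of all 17672 in WT, and 3286 and 3001 in KO. *Tpm2*, a muscle tropomyosin, went from 140.2 ± 17.4 to 656 ± 226 CPM in WT (log2 fold change 2.18) and from 146 ± 19.2 to 397 ± 64.1 CPM in KO (1.44). *Acta2*, smooth muscle actin, went from 309 ± 136 to 991 ± 368 CPM in WT (1.73) and from 312 ± 45.5 to 729 ± 209.9 CPM in KO (1.19). *Tagln2* (-1.93 in WT and -2.09 in KO) and *Cnn1* (-1.65 and -1.92), which encode actin-binding proteins of the calponin family, fell. All 6 striated muscle targets rose in both genotypes, led by *Actc1* (log2 fold change 10.21 in WT and 8.53 in KO), *Myl1* (9.91 and 8.08) and *Acta1* (9.17 and 7.82), with a median of 8.20 in WT and 6.75 in KO. In KO against WT at D2, the fitted values of these 6 genes lay between -1.11 and -0.87, and 0 of 6 passed the test in limma. Of the 6, 1 had an unadjusted p under 0.05, as had 1.96% of all genes. Of 7 immediate early targets, 2 rose in both genotypes, *Egr2* (2.83 and 2.50) and *Egr3* (2.18 and 1.59), zinc finger transcription factors. Of the immediate early targets, 2 rose and 2 fell in both genotypes without the D2 libraries of replicate number 1, *Egr2* was at 2.39 and 1.85 and *Egr3* at 1.60 and 0.89, and the 6 striated muscle targets rose as before.

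Like *Srf* itself, many of these targets were set apart at D2 by replicate number 1. This library was the highest of its D2 group in both genotypes for 17 of 22 cytoskeletal and 7 of 7 immediate early targets, and for 1 of 6 striated muscle targets. The same held for 34.6% of all genes tested and 50.5% of genes with a mean of at least 10 CPM. It also held for 17 of 22 SRF cofactors and upstream regulators (77.3%), as many as among the cytoskeletal targets. For the cofilin, monomer and gelsolin lists, also counted below, it was 55.6%, 56.8% and 60%. *Vcl*, which encodes vinculin of focal adhesions and whose box is printed above, was at 1164, 191 and 217 CPM in WT D2 and 1214, 182 and 254 CPM in KO D2, against 204 to 469 CPM in all Prol libraries. *Pdlim5* (538, 107 and 111 CPM in WT D2, 559, 100.5 and 118 CPM in KO D2) and *Lima1* (655, 193 and 212 CPM, 712, 199 and 230.1 CPM) had the same pattern and were picked after their values were seen. Cytoplasmic β-actin (*Actb*) was at 7545, 4592 and 6192 CPM in WT Prol and 4731, 1770 and 1877 CPM in WT D2. Within replicate number, 12, 7 and 6 of the 22 cytoskeletal targets were higher at D2 than in Prol in WT and 13, 3 and 7 in KO, in the order of replicates 1 to 3. Numbers 2 and 3 are not shown to pair the WT libraries here. For the 7 immediate early targets, the median log2 ratio was 2.57, 0.38 and 0.39 in WT and 2.61, -0.03 and 0.45 in KO. The labels give no batch or date by which these libraries could be told apart from the others, and the study's account of its model names a sequencing lane that is not given per library, so that a part of the lane in this pattern was not tested.

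**Figure D5:**
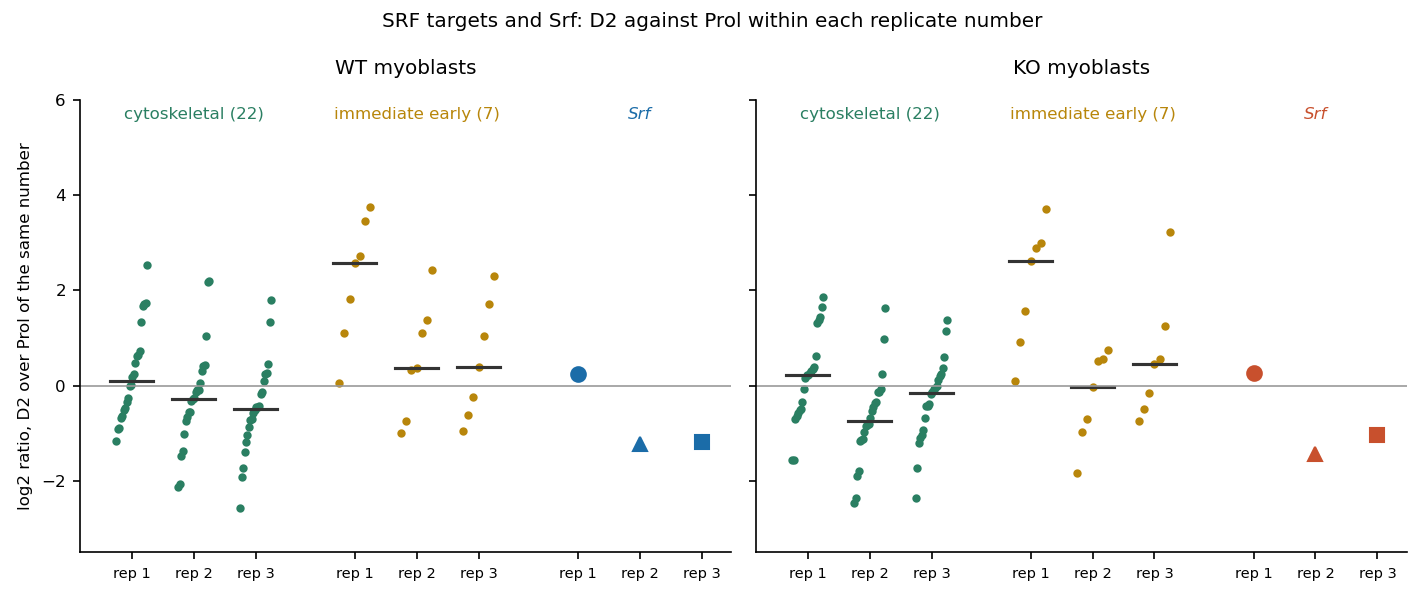
Log2 ratio of D2 over Prol within each replicate number (vertical axis) for 22 cytoskeletal SRF targets (green), 7 immediate early SRF targets (yellow) and *Srf* (blue or red symbols), in WT and KO. Each dot is a gene and black lines are medians. Numbers 2 and 3 are not shown to pair D2 with Prol in WT. In replicate 1 the medians of the immediate early genes are 2.57 and 2.61 and *Srf* is above 0, while in replicates 2 and 3 those medians are between -0.03 and 0.45 and *Srf* is below -1.

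Of 22 SRF cofactors and upstream regulators tested, 6 rose and 2 fell in WT and 6 rose and 3 fell in KO. These counts became 6 and 11 in WT and 5 and 8 in KO without the D2 libraries of replicate number 1. *Abra*, which encodes STARS, an actin-binding protein of striated muscle, was at or under 3 counts in every Prol library and at 5.72 ± 1.84 CPM in WT D2 and 2.38 ± 0.377 CPM in KO D2, at least 49.0-fold and 21.6-fold higher than a floor of 3 counts per library. *Phactr1*, an actin monomer-binding regulator of phosphatase 1 (log2 fold change 2.83 and 4.19), and the small GTPase gene *Rhob* (1.21 and 0.66) rose in both genotypes. *Myocd*, which encodes the coactivator myocardin, fell in both (-3.69 and -3.45) at low levels of 1.33 ± 0.760 CPM in WT Prol and 0.181 ± 0.242 CPM in WT D2. *Diaph3*, a formin that nucleates filaments, fell from 94.5 ± 32.3 to 20.5 ± 5.07 CPM in WT and from 92.7 ± 25.1 to 21.3 ± 7.55 CPM in KO.

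The partners of the actin-binding members were counted in the same way. Of 18 genes around cofilin (kinases, phosphatases and co-factors), 1 rose and 1 fell in WT and 1 rose and 3 fell in KO. The coronin genes moved in opposite directions, with *Coro1b* rising (log2 fold change 0.83 in WT and 1.02 in KO) and *Coro1c* falling (-1.27 and -1.50). Of 37 genes for monomer binding, nucleation and elongation, 7 rose and 1 fell in WT and 5 rose and 1 fell in KO. Those with the largest rises were the leiomodins, which nucleate filaments in sarcomeres, *Lmod3* (0.0660 ± 0.0403 to 62.7 ± 21.7 CPM in WT, 0.154 ± 0.125 to 34.3 ± 6.66 CPM in KO) and *Lmod2* (0.0435 ± 0.0436 to 13.5 ± 5.13 CPM in WT, and in KO at least 57.3-fold over a floor of 3 counts per library), followed by the formin *Daam2* (log2 fold change 4.06 and 4.30). *Wasf3*, of the WAVE complex, fell (-0.56 and -0.61). Of 15 relatives of gelsolin, capping proteins and pointed-end binders tested, 4 rose and 0 fell in both genotypes, among them tropomodulin 1 (*Tmod1*, 5.93 and 5.01), supervillin (*Svil*, 1.94 and 1.69) and advillin (*Avil*, 1.89 and 2.01). Without the D2 libraries of replicate number 1, the cofilin list had 1 risen and 5 fallen genes in WT and 2 and 6 in KO, the monomer and nucleation list 7 and 8 in WT and 7 and 3 in KO, and the gelsolin list 4 and 2 in WT and 4 and 1 in KO. *Wasf3* in KO was then not called (adjusted p = 0.0743). In KO against WT at D2, 0 genes of these lists passed the test in limma. An unadjusted p under 0.05 was found for 2 of the 22 cofactors and 1 of the 22 cytoskeletal targets. It was found for 0 of the immediate early, cofilin, monomer and gelsolin lists, and for 1.96% of all genes.

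The genes whose log2 values ran most closely with the 10 genes over the 18 libraries were searched among 9488 genes with a mean of at least 10 CPM. These correlations describe libraries that share depth, state and replicate number, and carry no test. *Srf* ran with *Eif2ak4* (r = 0.980), with *Wdr1* (r = 0.979), which encodes the cofilin partner AIP1, and with *Zfp36l2* (r = 0.970), and for all 3 the D2 libraries of replicate number 1 were above the other D2 libraries. *Mkl1* ran with *Foxk1*, *Ubr3* and *Myof* (r = 0.964, 0.960 and 0.954), whose longest transcripts are 7439, 8081 and 7094 bases. *Cap2* ran with *Patj* (r = 0.986), *Baiap2l1* (r = 0.982) and *Jph2* (r = 0.9749), the gene of a junctional membrane protein of muscle, at 92.5 CPM in WT D2 and 48.2 CPM in KO D2. The genes nearest to *Cfl2* were *Cuedc1*, *Iscu* and *Pkia* (r = 0.924, 0.923 and 0.913), those near to *Pfn2* included *Ptgr1* and *S100a13* (r = 0.938 and 0.921), and those nearest to *Gsn* were *Sec23a*, *Ptpn13* and *Rras* (r = 0.974, 0.973 and 0.971). Among the 10 genes themselves, *Mkl1* and *Mkl2* (r = 0.899) and *Srf* and *Cap1* (r = 0.872) ran most closely together, and *Cfl1* and *Pfn2* (r = -0.838) and *Cap2* and *Pfn1* (r = -0.836) most in opposite directions.

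All 10 genes are on GRCm38 as follows. *Srf* (ENSMUSG00000015605) lies at chr17:46548329-46556175 on the minus strand, *Mkl1* (ENSMUSG00000042292) at chr15:81012281-81190757 on the minus strand and *Mkl2* (ENSMUSG00000009569) at chr16:13256481-13417529 on the plus strand. *Cap1* (ENSMUSG00000028656) lies at chr4:122859047-122886056 on the minus strand and *Cap2* (ENSMUSG00000021373) at chr13:46501848-46650281 on the plus strand. *Cfl1* (ENSMUSG00000056201) lies at chr19:5490455-5495201 on the plus strand and *Cfl2* (ENSMUSG00000062929) at chr12:54858809-54862877 on the minus strand. *Pfn1* (ENSMUSG00000018293) lies at chr11:70651850-70654644 on the minus strand, *Pfn2* (ENSMUSG00000027805) at chr3:57841895-57848079 on the minus strand and *Gsn* (ENSMUSG00000026879) at chr2:35256380-35307892 on the plus strand.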

How the data were processed

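Per the labels and the study's methods, polyA-selected RNA of 18 libraries was sequenced with strand-specific single-end reads. The authors used cutadapt for trimming, NextGenMap against GRCm38 transcripts, RSEM for expected counts, tximport for gene sums, a low-count filter and TMM scaling in edgeR. The deposited values are CPM, the expected count plus 0.5 over the scaled library total. Groups and replicate numbers are from the sample titles.

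Log2 values of the 17672 genes with more than 5 counts in all 3 libraries of any group were fitted in limma 3.58.1 (R 4.3.3, lmFit and trended eBayes) with the 6 groups as the only factor, for 11 comparisons, and p-values were Benjamini-Hochberg adjusted over all genes. The fit was tested on simulated counts for WT D2 against Prol. These held no shared deviation by replicate number and no length trend, so that they cannot show how the fit handles either. Paralog ratios were compared by exact permutation tests. Transcript lengths and positions are from GENCODE M21, promoters from RefSeq. Figures were drawn with matplotlib 3.10.9.

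All 10 genes are named. From each list, up to 3 risen and 3 fallen genes in WT D2 against Prol with non-overlapping libraries are named, and for 6 of the 10 genes the 3 closest by correlation, of which 1 is not reported here. *Vcl*, *Actb*, *Pdlim5* and *Lima1* are outside this rule. The 10 genes and the lists were chosen with earlier results of these data known.

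Whether replicate numbers pair the libraries was checked by the correlation of deviations from group means. It was over 0.1 in 40 of 45 pairs (-0.036 to 0.645), including all pairs of the KO comparisons and of KO against WT. It was 0.0393 and 0.0100 for replicate 3 in WT D2 against Prol and against D0. At D2, WT replicate 2 correlated most with KO replicate 3, and WT replicate 3 with KO replicate 2. WT Prol replicates 2 and 3 likewise correlated most with WT D2 replicates 3 and 2. Numbers 2 and 3 are therefore not shown to pair WT D2 with KO D2 or with WT Prol, nor is number 3 shown to pair WT D2 with WT D0. The alternatives tried were scaling by median of ratios or by library totals, voom weights, other filters and pseudocounts, a replicate block, a fit of the compared groups alone, unadjusted p-values with and without a 1.5-fold change and 10 CPM (the study's cut of the change is a log2 of 1.5, added after seeing the data) and each library left out.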

Additional observations from a re-analysis of the deposited data

How the results depend on the processing

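The 0 calls among the 10 genes in D0 against Prol, in KO against WT (each state and averaged) and in the interaction were 0 in every alternative run and with any library left out. Of the D2 against Prol calls, 5 in WT became 2 with only the groups compared and 2 to 5 with 1 library left out, and 4 in KO became 2 to 5 with 1 library left out. The 2 calls in WT D2 against D0 became 6 with the replicate block, 6 with a random replicate block in voom, 1 with only the groups compared, 5 by unadjusted p with a 1.5-fold change and 10 CPM, 6 by unadjusted p and 2 to 4 with 1 library left out. The 4 in KO D2 against D0 became 1 with only the groups compared and 1 to 5 with 1 library left out. The next alternatives were chosen after seeing the data. With replicates 2 and 3 alone, 4 genes were called in WT D2 against D0, and with the 16 libraries that leave out the D2 libraries of replicate number 1, 5 were called. With the change set at a log2 of 1.5 in place of 1.5-fold, as the study states it, 1 gene (*Cap2*) was called in each of the D2 against Prol and D2 against D0 comparisons. With the length trend removed, 1 was called in KO D2 against D0. In WT D2 against Prol, where numbers do not pair the libraries by the check, the block called *Gsn* as well (1.06, adjusted p = 4.24e-05) and *Srf* was at an adjusted p of 0.0600 (0.0544 in KO). Paired by replicate number, the paralog ratios kept their differences of 2.56, 1.52 and 1.55 at an adjusted p of 0.0625, the smallest that the 64 arrangements of the exact permutation test by block allow. With 1 library left out they were 2.49 to 2.68, 1.44 to 1.61 and 1.42 to 1.66, all at an adjusted p of 0.01, and KO against WT -0.38 to -0.24, -0.20 to -0.04 and 0.03 to 0.21. Directions were not followed for *Mkl1* in KO and *Mkl2* in WT, whose log2 fold changes in D2 against Prol were near 0 (-0.018 and -0.0059). Among the other D2 against Prol changes, directions reversed for *Mkl1* in WT (-0.073 without WT D2 replicate 1 and in the 16 libraries, range with 1 library left out -0.073 to 0.32), *Mkl2* in KO (-0.26 without KO D2 replicate 1 and in the 16 libraries, -0.14 in replicates 2 and 3 alone, range -0.26 to 0.44) and *Cap1* in KO (0.035 without KO Prol replicate 1, 0.056 without KO D2 replicate 3, range -0.47 to 0.056), none of which was called. The causes were not tested. Expected counts of 97 or more lie behind every value of the 10 genes.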
